A study of Mus musculus with 14 samples.

Results

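The ParaHox genes Gsx1, Pdx1 and Cdx2 and their relatives Gsx2 and Cdx1 were followed in H3K27me3 Cut&Tag of mouse embryonic stem cells (mESCs). Their members in the data were the peaks within 10 kb of a RefSeq gene body, which gave 41 of the 74458 peaks of the table: 6 at Gsx1, 6 at Pdx1, 10 at Cdx2, 8 at Gsx2 and 11 at Cdx1. No peak lay in the windows of 2 of these genes. All 5 genes carried H3K27me3 well above the typical gene in every library. None of the 41 peaks or 5 genes was called different in any of the 3 deletions. Calls were rare throughout, at most 1.49% of all peaks and 0.698% of all genes in a deletion.

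Cut&Tag tethers the transposase Tn5 to an antibody on chromatin, so that sequencing adapters are inserted beside the mark. H3K27me3, the trimethylation of lysine 27 of histone H3, is deposited by Polycomb repressive complex 2 at developmental genes that are silent but can be switched on later. The labels describe the cells as mESCs kept with leukaemia inhibitory factor (LIF) on CD1 feeder cells. The libraries fall into Hoxa Deletion (3 libraries), Wnt6 Deletion (2 libraries) and Hmx1 Deletion (2 libraries). Each removes a stretch that anchors Polycomb loops. No column of the table holds unedited cells, so each deletion was set against the other 2 pooled. Per the study's methods, the parental line was G4, an F1 line of the 129/Sv and C57BL/6 strains, and homozygous deletions were made with CRISPR-Cas9. Where a deletion is represented by 1 clone, as the study's wording implies, deletion and clone cannot be told apart. The replicates are not stated to be separate cultures, so p-values measure the spread between these libraries, which may be technical. Where 2 deletions are pooled, that spread also holds the difference between them.

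ParaHox genes encode homeodomain transcription factors and are the evolutionary sister group of the Hox genes. In the mouse, Gsx1, Pdx1 and Cdx2 still lie side by side, while Gsx2 and Cdx1 were left at other loci by genome duplications, with Cdx4 as the remaining Cdx gene. Gsx1 and Gsx2 act in progenitors of the ventral forebrain, Pdx1 directs the pancreas and duodenum, and the Cdx genes pattern the posterior body axis and the intestine. Cdx2 also specifies the trophectoderm, a lineage that mESCs do not normally form. Each locus is bordered by genes of receptor tyrosine kinases, with Flt3 and Flt1 beyond Cdx2, Pdgfra, Kit and Kdr beside Gsx2, and Pdgfrb and Csf1r beside Cdx1.

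The promoter windows of Gsx1, Pdx1, Cdx2 and Gsx2 are printed because the strongest peak of each gene by CPM (counts scaled to the same library total) covered or touched them, and because CpG dinucleotides are a known feature of Polycomb targets. Each runs from 250 bases before to 50 bases after the RefSeq start (GRCm38.p6, 5′ to 3′ on the strand of the gene), with CpG dinucleotides in capitals. They lie at chr5:147188446-147188745 (plus strand), chr5:147269847-147270146 (plus strand), chr5:147307200-147307499 (minus strand) and chr5:75075351-75075650 (plus strand). Of the 5 genes, 4 were matched in the promoter table.
Gsx1: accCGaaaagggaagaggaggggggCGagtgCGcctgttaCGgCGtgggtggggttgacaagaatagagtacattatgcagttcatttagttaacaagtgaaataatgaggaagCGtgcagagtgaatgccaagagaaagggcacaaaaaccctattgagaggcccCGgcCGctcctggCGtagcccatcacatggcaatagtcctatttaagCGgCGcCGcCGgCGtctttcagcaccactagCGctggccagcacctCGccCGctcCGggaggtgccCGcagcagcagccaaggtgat
Pdx1: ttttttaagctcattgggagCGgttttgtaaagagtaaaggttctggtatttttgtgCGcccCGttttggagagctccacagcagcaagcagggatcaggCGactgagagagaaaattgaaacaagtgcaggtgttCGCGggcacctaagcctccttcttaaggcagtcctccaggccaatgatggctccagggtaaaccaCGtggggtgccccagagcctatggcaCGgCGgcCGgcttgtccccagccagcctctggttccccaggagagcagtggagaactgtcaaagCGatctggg
Cdx2: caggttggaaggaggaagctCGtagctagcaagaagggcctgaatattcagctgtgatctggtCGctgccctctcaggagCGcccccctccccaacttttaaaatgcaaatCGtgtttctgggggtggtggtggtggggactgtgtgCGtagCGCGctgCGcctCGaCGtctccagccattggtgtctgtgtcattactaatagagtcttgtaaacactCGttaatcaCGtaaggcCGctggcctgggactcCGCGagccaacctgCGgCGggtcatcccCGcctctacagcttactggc
Gsx2: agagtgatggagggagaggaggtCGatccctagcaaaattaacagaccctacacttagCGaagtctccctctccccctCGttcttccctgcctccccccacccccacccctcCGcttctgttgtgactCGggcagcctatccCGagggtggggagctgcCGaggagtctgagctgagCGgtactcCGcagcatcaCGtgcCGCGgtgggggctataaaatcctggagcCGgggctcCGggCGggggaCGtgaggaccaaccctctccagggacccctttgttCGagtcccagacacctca

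The windows of Gsx1, Cdx2 and Gsx2 held 19, 18 and 17 CpG dinucleotides, and that of Pdx1 held 11. The median of 32851 RefSeq promoter windows was 7. The letters TATAAA, searched on both strands, were found at Gsx2 only among the 4 windows, and in 13.6% of all windows. The letters TTTATG, which Cdx factors can bind, and TAATTA, a core read by many homeodomains, were in none of the 4, against 11.9% and 5.29% of all windows.

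A peak covered 43.9% of all promoter windows, and that share climbed from 7.31% of windows with 0 to 4 CpG dinucleotides to 92.2% of those with 30 or more. All 4 windows above were covered. Where a peak was present, its median level lay between 9.08 and 13.6 CPM per kb of peak over the 7 groups of windows, while the upper quartile ran from 16.4 in windows with 0 to 4 CpG dinucleotides to 33.5 in those with 30 or more. The median was 12.4 in windows with 15 to 19 CpG dinucleotides and 13.6 in windows with 10 to 14. The peaks at Cdx2 (93.4 CPM per kb), Gsx1 (85.0) and Gsx2 (62.9) stood above the upper quartile of 33.4 of the first group, and that at Pdx1 (75.5) above the upper quartile of 32.5 of the second. Cdx4, with 8 CpG dinucleotides, had 30.2 CPM per kb, against an upper quartile of 24.2 for its group. The 4 promoters thus stood above most covered windows of similar CpG count.

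**Figure D1:**
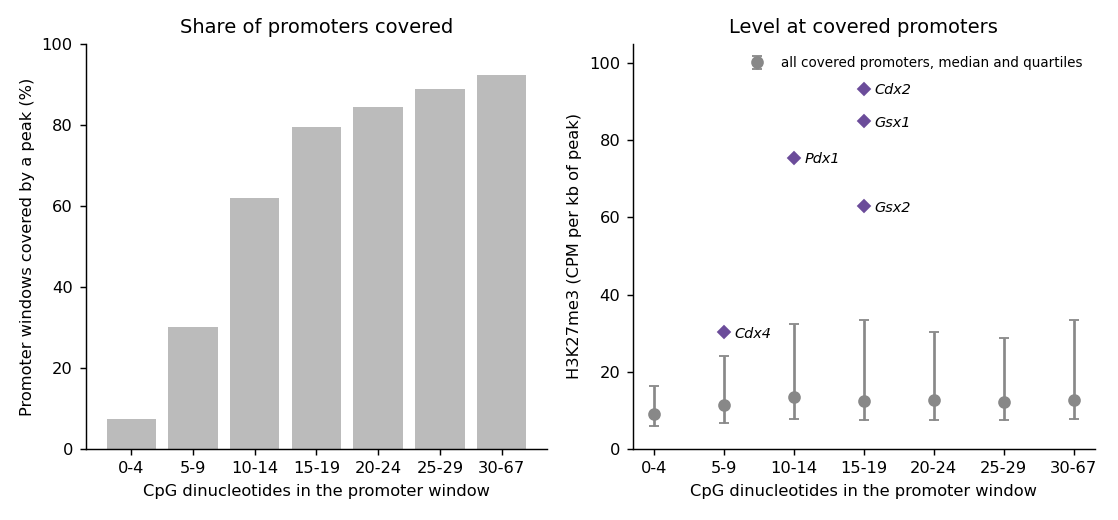
Promoter windows grouped by their number of CpG dinucleotides (x axis). The left panel gives the share of windows covered by a peak in percent. The right panel gives the H3K27me3 level in CPM per kb of peak, with grey points and bars for the median and quartiles of all covered windows and diamonds for single genes. The share covered reaches 92.2%, the medians stay between 9.08 and 13.6, and Gsx1, Pdx1, Cdx2 and Gsx2 lie between 62.9 and 93.4.

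Totals ran from 6016500 to 36563541 counts per library, and the median count of the 41 peaks from 168 to 1050, with 19 as the lowest single count. The stretch that each deletion removes was read from these counts. It was the longest run of peaks under 10% of the others in every library of the deletion. The runs lay at chr6:52163046-52274461 (Hoxa), chr1:74768523-74901291 (Wnt6) and chr5:35382872-35401827 (Hmx1). Over its run, each deletion held 0.0931% to 0.540% of the CPM of the others, here by library totals alone. This low share follows from the choice. The marker lists describe the mark and not expression. The 6 genes of mESC identity had a median of 8.66 CPM per kb, from Nanog (5.73) to Sox2 (18.5), and 4 of the 5 feeder fibroblast genes had a peak, with a median of 12.0. The median of all 30964 genes with a peak was 9.36. In a bulk culture, fewer cells carrying the mark and less of it per cell cannot be told apart.

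H3K27me3 was summed over the peaks of each gene and divided by their summed length. Cdx2 was highest at 64.7 ± 3.31 CPM per kb (SD, n = 7 libraries), at the 98.2 percentile of genes with a peak. Gsx1 followed with 59.5 ± 2.98, Pdx1 with 52.4 ± 3.19 and Gsx2 with 50.3 ± 3.23. Cdx1 was lowest at 42.4 ± 3.95, which is still the 92.2 percentile. The order was thus Cdx2, Gsx1, Pdx1, Gsx2 and Cdx1, and every one of the 5 genes stood above the median gene (9.36) in all 7 libraries.

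In the Hoxa deletion, Cdx2 measured 66.6, 62.4 and 66.0 CPM per kb, in the Wnt6 deletion 63.4 and 58.8, and in the Hmx1 deletion 67.7 and 67.8. The Hmx1 libraries lay above all others by a narrow margin, as they did at 6.71% of all genes tested. Gsx1 measured 61.4, 57.0 and 58.7 in the Hoxa deletion, 61.8 and 54.4 in the Wnt6 deletion, and 60.3 and 62.8 in the Hmx1 deletion. Pdx1 measured 57.0, 51.2 and 50.2, then 53.3 and 47.7, then 51.9 and 55.7 in the same order of deletions. At both genes the 3 deletions overlapped. Gsx2 measured 53.9, 50.6 and 49.5 in the Hoxa deletion, 47.9 and 44.7 in the Wnt6 deletion, and 52.3 and 53.0 in the Hmx1 deletion. Cdx1 measured 48.6, 44.0 and 43.6 in the Hoxa deletion, 37.5 and 37.4 in the Wnt6 deletion, and 42.0 and 43.4 in the Hmx1 deletion. At Gsx2 and Cdx1 (2 of 5 genes) both Wnt6 libraries lay below every other library, as at 5.79% of all genes, and at Cdx1 (1 of 5) all Hoxa libraries lay above every other one, as at 16.5% of all genes. Of the 41 peaks, 10 had both Wnt6 libraries below all others (4.56% of all peaks), 2 had all Hoxa libraries above all others (9.10%) and 4 had both Hmx1 libraries above all others (6.95%). These shares are over peaks not matched in level to the 41. Several of the 10 were peaks of Cdx1 in the same libraries and are not independent counts.

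**Figure D2:**
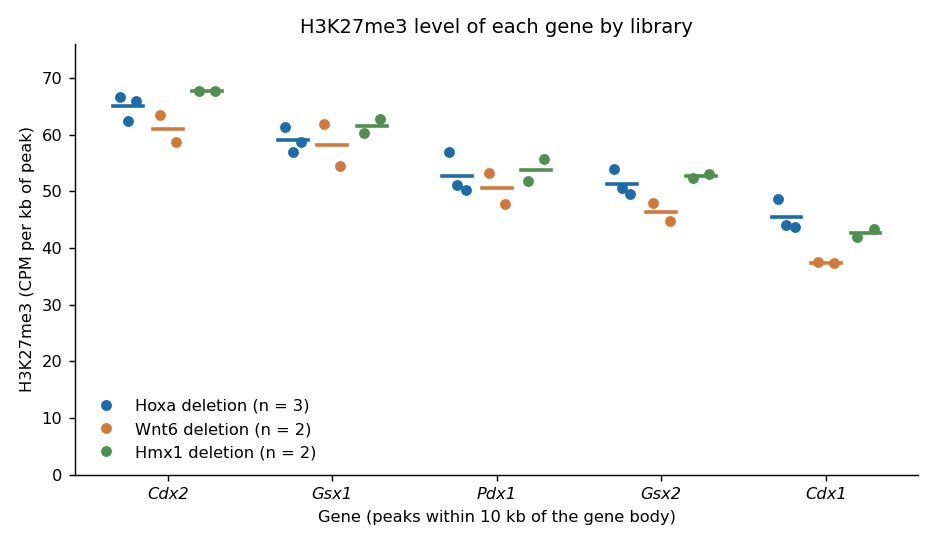
H3K27me3 level of each gene (x axis) in CPM per kb of peak (y axis), with a point for each library and a line for the mean of each deletion. Cdx2 is highest and Cdx1 lowest, and the spread among libraries of a gene, with an SD between 2.98 and 3.95, is small beside the level.

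Neighbours in this order were set against each other within each library. The pairs were read from the order of the same libraries, so their differences are a description and no p is given. On the log2 scale Cdx2 exceeded Gsx1 by 0.12 ± 0.04 (SD, n = 7 libraries), Gsx1 exceeded Pdx1 by 0.18 ± 0.04 and Gsx2 exceeded Cdx1 by 0.25 ± 0.07, each in 7 of 7 libraries. Pdx1 and Gsx2 differed by 0.06 ± 0.06, in 6 of 7 libraries, which is no more than the spread between libraries. The order also rested on the window. Over peaks touching the gene bodies alone, Gsx1 (85.0 CPM per kb) stood above Cdx2 (74.0), and over 50 kb Pdx1 stood above Gsx1. As summed CPM without division by length, Gsx2 (386) stood above Pdx1 (265).

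The peak at the start was the strongest of each gene by CPM, and by CPM per kb too at Gsx1, Pdx1, Cdx2 and Cdx1. For Cdx1, whose strand was not in the tables, it is the peak at the end of higher coordinates. At Gsx1, which patterns neural progenitors, the peak at chr5:147188606-147190599 had 182, 162 and 166 CPM in the Hoxa deletion, 173 and 150.0 in the Wnt6 deletion, and 177 and 177 in the Hmx1 deletion. It held 50.9% of the summed CPM of the gene. At Pdx1, the pancreatic regulator, the peak at chr5:147269922-147271715 had 142, 129 and 130 CPM, then 139 and 124, then 142 and 142 in the same order, and held 51.0% of the sum. In both peaks the second Wnt6 library was the lowest, and no deletion stood clear of the other 2.

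At Cdx2, the trophectoderm and intestinal regulator, the peak at chr5:147305957-147307526 had 153, 139.7 and 157 CPM in the Hoxa deletion, 139.5 and 135 in the Wnt6 deletion, and 149 and 153 in the Hmx1 deletion. Both Wnt6 libraries were the lowest, the first by a narrow margin. This peak held 28.2% of the sum, the smallest share among the 5 genes, since Cdx2 had strong peaks beyond both ends: chr5:147299075-147300175 past its 3′ end had 72.3 CPM per kb, and chr5:147314835-147315829 had 86.7 at 8.08 kb before the start. The latter overlaps Urad, a neighbour that shares peaks with Cdx2 and whose own sum was 68.0 CPM per kb.

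At Cdx1, a posterior and intestinal regulator, the peak at chr18:61034709-61036747 had 173, 149 and 143 CPM in the Hoxa deletion, 138 and 130 in the Wnt6 deletion, and 143 and 157 in the Hmx1 deletion. Both Wnt6 libraries were the lowest, and the Hoxa and Hmx1 libraries overlapped. Beyond it the mark fell off into the gene, with 36.1 CPM per kb at 2.69 kb and 12.5 at 10.3 kb. On the outer side 4 peaks up to 9.05 kb away held 41.8 to 53.6 CPM per kb.

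At Gsx2, a forebrain regulator, the peak over the start, chr5:75074623-75076746, had 142, 131 and 130 CPM in the Hoxa deletion, 129 and 128 in the Wnt6 deletion, and 129 and 144 in the Hmx1 deletion. It is the widest of the 41 peaks (2123 bp) and the steadiest, with a coefficient of variation of 5.02% over the 7 libraries. The highest by CPM per kb (65.9) was instead chr5:75066873-75067815, centred 8.26 kb before the start. It had 70.2, 59.6 and 68.9 CPM in the Hoxa deletion, 48.2 and 51.1 in the Wnt6 deletion, and 73.0 and 63.6 in the Hmx1 deletion. Both Wnt6 libraries were below all others there, whereas over the start the 3 deletions lay within 128 to 144 CPM.

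**Figure D3:**
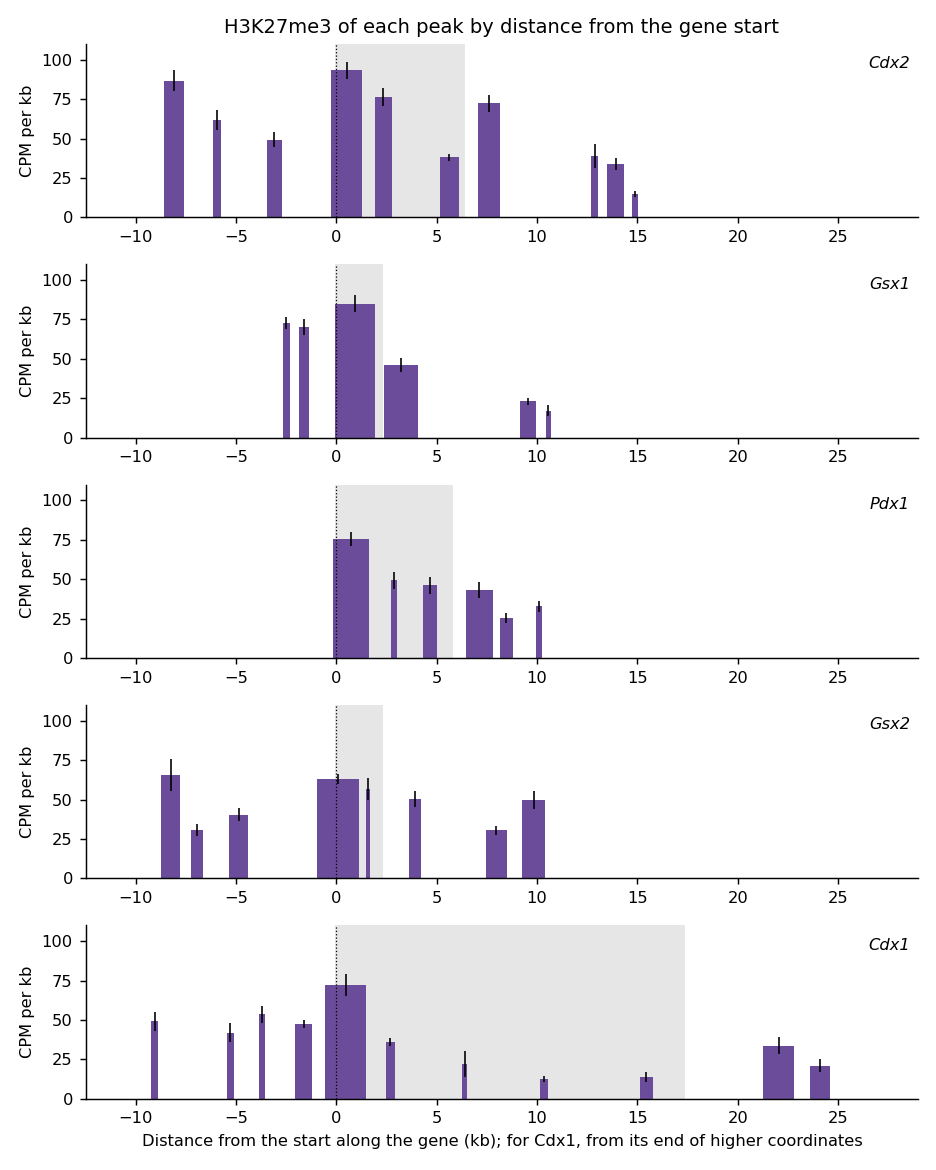
Mean H3K27me3 of each of the 41 peaks in CPM per kb (y axis) by distance from the start along the gene in kb (x axis), with bars as wide as the peaks, error bars for the SD over 7 libraries and the gene body in grey. For Cdx1 the distance is from the end of higher coordinates. The bars at the start are highest except at Gsx2, where a peak 8.26 kb before it reaches 65.9.

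Of the 41 peaks, 14 overlapped a gene body and 27 lay outside. All 41 were above the median mean CPM of the table (3.80), and 31 of 41 were in its top 10% by CPM per kb, with a median of 46.1 CPM per kb against 7.74 for all peaks. Their median coefficient of variation over the libraries was 10.3%, against 21.2% for all peaks, which hold fewer counts. The steadiness of these peaks was not set against peaks of matched count.

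Gsx1, Pdx1 and Cdx2 form a cluster of 129.8 kb on chromosome 5, from chr5:147186016 to chr5:147315829, with 33 peaks. The 22 peaks near the genes had a median of 47.6 CPM per kb (14.9 to 93.4) and held 89.9% of the CPM of the cluster. The 11 peaks between them had a median of 9.41 (6.78 to 38.7), close to the 7.74 of all peaks. The mark thus came in separate blocks over the genes and not as an even cover of the cluster. The highest peak between the genes, chr5:147221186-147222767 at 38.7 CPM per kb, was singled out after its value was seen. No peak between the genes had an adjusted p under 0.05 in any comparison (edgeR quasi-likelihood test). Of all peaks, 8.47%, 0.0108% and 0.0161% did in the Hoxa, Wnt6 and Hmx1 deletions.

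Each deletion was then compared with the other 2 pooled by edgeR's quasi-likelihood test over all peaks. The thresholds for a call were a log2 fold change beyond 1 in either direction together with an adjusted p (Benjamini-Hochberg) below 0.05. Of the 41 peaks, 0 were called in the Hoxa deletion, where 1.49% of 74393 peaks were, 0 in the Wnt6 deletion (0.00403% of 74405) and 0 in the Hmx1 deletion (0.0134% of 74428). DESeq2 also called 0 in each. At an unadjusted p under 0.05 there were 4 in the Hoxa deletion (9.76%, background 20.7%), 7 in the Wnt6 deletion (17.1%, background 5.16%) and 0 in the Hmx1 deletion (background 8.94%). For the gene sums, 0 of 5 genes were called in each deletion, with backgrounds of 0.698%, 0% and 0.0162% in the Hoxa, Wnt6 and Hmx1 deletions.

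In the Hoxa deletion, the summed H3K27me3 of Gsx1 differed by -0.02, of Pdx1 by 0.02, of Cdx2 by 0.01 and of Gsx2 by 0.05 on the log2 scale, and no adjusted p of these was under 0.663 (edgeR quasi-likelihood test). The 95% intervals of these 4 genes ran from 0.899-fold to 1.14-fold. Cdx1 differed by 0.18 ± 0.07 (SE, edgeR adjusted p = 0.0590, 95% interval 1.03-fold to 1.25-fold). Its value rested on the settings, with adjusted p = 0.0013 at the lowest (abundance-dependent offsets, which scale each library by a loess curve over the level of the gene or peak and were added after seeing the data) and 0.357 at the highest (against the Hmx1 deletion alone).

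Without a fold change minimum, 3 of the 41 peaks (7.32%) had an adjusted p under 0.05 in the Hoxa deletion, all at Cdx1, against 8.47% of all peaks. In the Wnt6 and Hmx1 deletions there were 0, against 0.0108% and 0.0161%. The share in the Hoxa deletion was near the background, so it says nothing particular about these genes. The peak at chr18:61013378-61014960 lay 22.0 kb from the end of higher coordinates of Cdx1. It lay over the edge of the neighbour Slc6a7 (a proline transporter of neurons) that faces Cdx1. It had 65.0, 59.3 and 62.2 CPM in the Hoxa deletion, 41.7 and 44.5 in the Wnt6 deletion, and 51.9 and 49.7 in the Hmx1 deletion. All 3 Hoxa libraries lay above all others (log2 fold change 0.41 ± 0.10, edgeR adjusted p = 0.0033). The peak at chr18:61020426-61021075, inside Cdx1, had 12.1, 11.0 and 10.2 CPM, then 8.0 and 7.1, then 6.8 and 7.6, again with all Hoxa libraries above the others (0.57 ± 0.15, edgeR adjusted p = 0.0076). The peak at chr18:61011629-61012612, inside Slc6a7, had 22.2, 27.2 and 21.5 CPM, then 14.8 and 17.3, then 22.5 and 19.3, and the groups overlapped (0.38 ± 0.12, edgeR adjusted p = 0.0443). That last p rose above 0.05 when any of 5 libraries was left out (the second Hmx1, the first or second Hoxa, or either Wnt6 library, adjusted p = 0.0689 to 0.372) and in DESeq2 (adjusted p = 0.0678). Against the Hmx1 deletion alone the peak differed by 0.22 (edgeR adjusted p = 0.418), and with abundance-dependent offsets by 0.34 (edgeR adjusted p = 0.0876). With counts downsampled to the smallest library it was 0.242, and that of the peak inside Cdx1 was 0.145. The peak over the start of Cdx1 differed by 0.13 and its unadjusted p was 0.126.

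In the Wnt6 deletion, 36 of 41 peaks were below 0 on the log2 scale, with a median of -0.13 against -0.0024 for all peaks. Among the 35217 peaks at least as strong as the weakest of the 41, the median was -0.03 and 56.3% were below 0. For the gene sums, Gsx1 differed by -0.05, Pdx1 by -0.07, Cdx2 by -0.11, Gsx2 by -0.16 and Cdx1 by -0.24. With abundance-dependent offsets they were -0.02, -0.05, -0.07, -0.13 and -0.21 in the same order. In the pooled comparison with TMM scaling the edgeR adjusted p was 0.837 for Gsx2 and for Cdx1 and higher for the others. Cdx1 passed 0.05 with a term for each genotype (edgeR adjusted p = 0.0205) and against the Hoxa deletion alone (edgeR adjusted p = 0.0046). The other genes did not pass it in either. The Gsx2 peak 8.26 kb before the start had the lowest unadjusted p of the 41 (log2 fold change -0.43 ± 0.11, unadjusted p = 0.0011, edgeR adjusted p = 0.674). The second Wnt6 library was the deepest of all and had the highest TMM factor (1.05). In TMM-scaled CPM it was the lowest of the 7 libraries at all 5 genes. Without it the median of the 41 peaks was -0.07 with 26 of 41 below 0, and without the first Wnt6 library it was -0.16. With all libraries downsampled to the smallest total the median was -0.14, with 31 of 41 below 0.

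Cdx1 was the only one of the 5 genes for which the Hoxa and Wnt6 deletions, set directly against each other, differed at an adjusted p under 0.05 (0.28 on the log2 scale, 95% interval 0.13 to 0.43, edgeR adjusted p = 0.0046). Of all genes, 14.4% did so, with 19.1% for the Hmx1 deletion against the Hoxa deletion and 0.588% for the Hmx1 deletion against the Wnt6 deletion. In each of the latter comparisons 0 of the 5 genes did. The Cdx1 sum holds the peaks inside Slc6a7 and over its edge facing Cdx1. In the Hoxa deletion against the others pooled, the sum of Slc6a7, which shares these peaks, differed by 0.20 (edgeR adjusted p = 0.0255). Over peaks touching its gene body alone, Cdx1 differed there by 0.16 (edgeR adjusted p = 0.167). The Hoxa and Wnt6 deletions were not set against each other without the shared peaks.

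The Hmx1 deletion lies on chromosome 5, as do Gsx1, Pdx1, Cdx2 and Gsx2. Gsx2 is 39.7 Mb from the deleted stretch and the cluster is 112 Mb away. In this deletion, 30 of 41 peaks were above 0, with a median of 0.09 against -0.0060 for all peaks and -0.03 for those of chromosome 5. Among the peaks at least as strong as the weakest of the 41, again not matched in level, the median was 0.0047 and 49.2% were below 0. The median of the 41 was 0.0534 without the second Wnt6 library and 0.0377 against the Hoxa deletion alone. With abundance-dependent offsets it was 0.0811, with 13 of 41 below 0. For the gene sums, Gsx2 differed by 0.09, Cdx2 by 0.09, Gsx1 by 0.07, Pdx1 by 0.05 and Cdx1, on another chromosome, by 0.02. With abundance-dependent offsets these were 0.02 for Gsx2, 0.0017 for Cdx2, -0.00057 for Gsx1, -0.0024 for Pdx1 and -0.05 for Cdx1. In the pooled comparison with TMM scaling no edgeR adjusted p was under 0.502. The 95% intervals of the 5 genes ran from 0.875-fold to 1.19-fold. The nearest called peak to the cluster was 2.43 Mb from Cdx2, and the nearest to Gsx2 was 39.7 Mb away. In the Hoxa deletion the nearest was 0.987 Mb from Cdx2, 2.67 Mb from Gsx2 and 7.29 Mb from Cdx1. In the Wnt6 deletion no peak of chromosomes 5 or 18 was called.

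**Figure D4:**
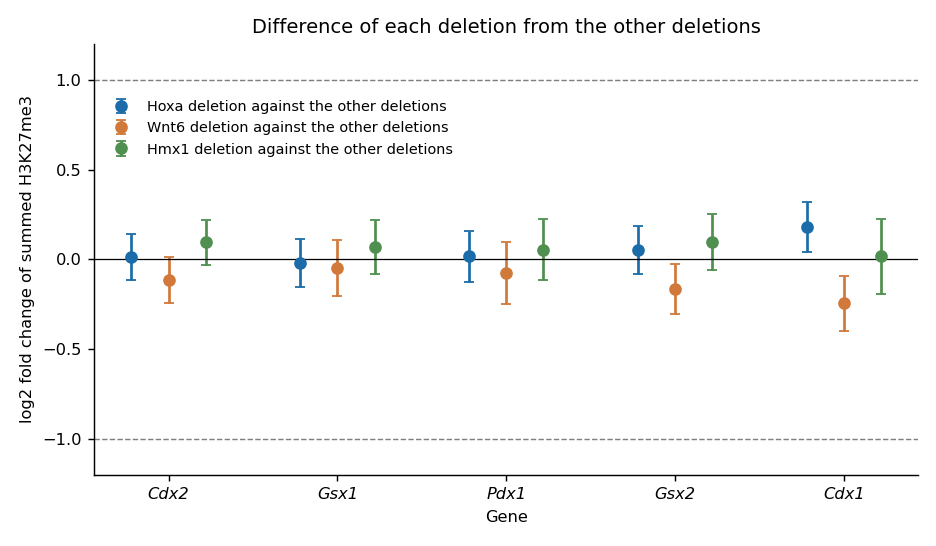
Log2 fold change of the summed H3K27me3 of each gene (x axis: gene) in each deletion against the other 2, with 95% intervals from edgeR. Dashed lines mark the fold change minimum of 1 on the log2 scale. All 15 intervals lie far inside the dashed lines, and the intervals of Cdx1 in the Hoxa deletion and of Gsx2 and Cdx1 in the Wnt6 deletion do not include 0, with unadjusted p-values.

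**Figure D5:**
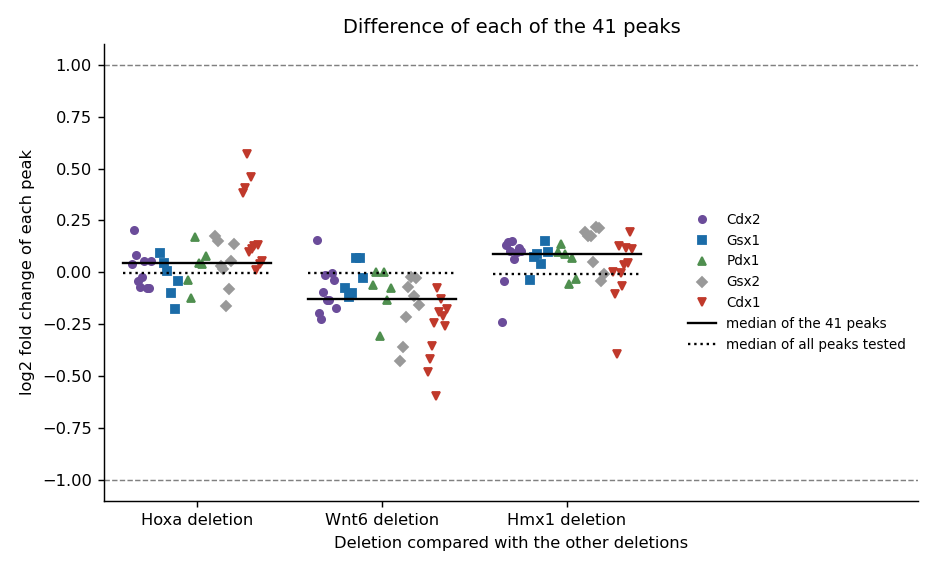
Log2 fold change of each of the 41 peaks (y axis) in each deletion against the other 2 (x axis), with a marker for each gene. Solid lines are the medians of the 41 peaks (0.04, -0.13 and 0.09 for the Hoxa, Wnt6 and Hmx1 deletions), dotted lines the medians of all peaks tested, and dashed lines the fold change minimum. The points farthest above 0 in the Hoxa deletion and farthest below 0 in the Wnt6 deletion are of Cdx1.

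Lists of genes of the tissues in which these factors act were measured in the same way. The median gene with a peak (9.36 CPM per kb) was exceeded by 16 of 16 pancreatic factors, 12 of 12 ventral forebrain factors and 8 of 10 posterior axis and intestine genes, of which Hnf4a (10.2) and Msgn1 (10.5) were near it and Tbx6 (5.08) and Isx below it. The 16 pancreatic transcription factors had a median of 55.6 CPM per kb, from Pax4 (25.3) to Ptf1a (85.1), an early pancreatic regulator. The 12 ventral forebrain factors had a median of 55.3, from Ebf1 (27.7) to Sp8 (77.0), and the 10 posterior axis and intestine genes 39.1, from Isx (3.74) to Cyp26a1 (78.6), the enzyme that degrades retinoic acid. The 14 neighbours of the loci were lower, at 21.7, from Pan3 (5.33) to Urad. Their values are not all separate, since Polr1d and Lnx2 rest on the same peaks and Urad and Slc6a7 share peaks with Cdx2 and Cdx1. In each of these lists 0 genes were called in any of the 3 deletions, where at most 0.698% of all genes were. The neighbour with the lowest adjusted p, singled out after its value was seen, was Kit, the receptor of stem cell factor, with a log2 fold change of 0.43 in the Hoxa deletion (edgeR adjusted p = 1.1e-04) from its single peak, beside 0.05 for Gsx2. The median differences in the Wnt6 deletion were -0.08 for the pancreatic factors, -0.09 for the forebrain factors, -0.06 for the posterior axis and intestine genes and -0.03 for the neighbours, beside -0.11 for the 5 genes and -0.03 for all genes. In the Hmx1 deletion they were 0.09, 0.09, 0.04 and 0.01 in the same order, beside 0.07 for the 5 genes and -0.03 for all genes.

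The genes most like each member were those with the smallest Euclidean distance of log2 CPM per kb over the 7 libraries, among genes with at least 3 peaks more than 1 Mb away. For Gsx1 these were Gm52674 and Gm33786, which share their peaks, at a distance of 0.062. For Pdx1 they were the pseudogene Gm25054 (0.052) and Gdnf, a neurotrophic factor (0.064), and for Cdx2 the phospholipase gene Plcb2 (0.068) and the lncRNA gene Prox1os (0.073). For Gsx2 they were Kncn (0.091) and Gm46021 (0.10), and for Cdx1 they were Olig2, a transcription factor of oligodendrocyte and motor neuron progenitors, and Gm52261 with the same peaks (0.15). Cdx1 thus had the least close match of the 5 genes.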

How the data were processed

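H3K27me3 Cut&Tag was measured in 7 libraries, and 7 IgG libraries were not used here, so no background was subtracted. The authors deposited raw counts over a shared peak list, with no normalization. The labels name Trimmomatic, Bowtie2, SAMtools, Picard, MACS2 and deepTools and the build mm10. Whether reads or fragments were counted and how the peak list was made are not given in the sources used here. Peak positions are as deposited, with the convention for the start not stated. Columns were matched to samples by title.

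The genes, the lists and the tests were chosen with earlier results of these data known. All 5 genes were described, with values in every library for their strongest peaks, and list genes were named where highest or lowest in level or called, except those named after their values were seen (Kit, Hnf4a, Msgn1 and Tbx6). Peaks were joined to RefSeq genes (GRCm38.p6) by a window of 10 kb, where neighbouring genes can share peaks. Counts were filtered with filterByExpr, scaled with TMM factors and fitted with glmQLFit and glmQLFTest in edgeR 4.0.16 (R 4.3.3), per peak and per gene sum, with adjustment over all features tested. Backgrounds leave out the stretch each deletion removes. DESeq2 1.42.0 was an alternative. Standard errors were derived from the F statistic. Totals of 6016500 to 36563541 counts set the precision, and PCR reads are not independent molecules. The procedure was tested on simulated data. Other alternatives were RLE factors, library totals, other filters, a model with 1 term per genotype, comparison with 1 other deletion at a time, a replicate block, downsampling, windows of 0 kb and 50 kb, no fold change minimum and each library left out. Abundance-dependent offsets were added after seeing the data. Plots were drawn with matplotlib 3.10.9.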

Additional observations from a re-analysis of the deposited data

How the results depend on the processing

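No peak and no gene of the 5 was called under any alternative that kept the fold change minimum, in any of the 3 deletions. Without that minimum 3 peaks had an adjusted p under 0.05 in the Hoxa deletion. The median of the peaks in the Hmx1 deletion was 0.0570 with library totals alone, 0.0377 against the Hoxa deletion alone, 0.142 against the Wnt6 deletion alone and 0.0451 over 50 kb, with 0.0534 to 0.123 when 1 library was left out. In the Hoxa deletion it was -0.0377 against the Hmx1 deletion alone and 0.113 against the Wnt6 deletion alone, with 0.0216 to 0.0866 when 1 library was left out. In the Wnt6 deletion it was -0.165 to -0.0662 when 1 library was left out. The cause was not tested.

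Of 300 values of single genes, 267 kept their direction and side of 0.05, 8 passed it and 25 changed sign, all of which had an adjusted p over 0.05. Those in the Hmx1 deletion were Cdx1 with library totals alone (-0.0144), against the Hoxa deletion alone (-0.0832), downsampled (-0.0070) and with abundance-dependent offsets (-0.0547), and under those offsets Gsx1 (-0.00057) and Pdx1 (-0.0024). Left-out libraries gave Cdx1 -0.0236 to 0.0792. In the Hoxa deletion they were Cdx2 (-0.0609), Gsx2 (-0.0393) and Pdx1 (-0.0376) against the Hmx1 deletion alone, Cdx2 downsampled (-0.00013), Gsx1 against the Wnt6 deletion alone (0.0247), Gsx1 with abundance-dependent offsets (0.0131), and Gsx1 (0.0070) and Pdx1 (-0.0032) over the gene bodies. Left-out libraries gave Cdx2 -0.0288 to 0.0418, Gsx1 -0.0632 to 0.0063 and Pdx1 -0.0448 to 0.0506 there, and in the Wnt6 deletion Gsx1 -0.142 to 0.0431 and Pdx1 -0.156 to 0.0029. Cdx1 passed 0.05 in the Hoxa deletion with library totals alone (adjusted p = 0.0071), a term for each genotype (0.0138), the Wnt6 deletion alone (0.0046), abundance-dependent offsets (0.0013) and without either Hmx1 library (0.0473 and 0.0452), and in the Wnt6 deletion with a term for each genotype (0.0205) and the Hoxa deletion alone (0.0046), all by edgeR. In the order of levels, Cdx2 minus Gsx1 was -0.20 over the gene bodies, Gsx1 minus Pdx1 was -0.38 over 50 kb and Pdx1 minus Gsx2 was -0.54 without division by length, with 0.0452 to 0.0732 for the last when 1 library was left out.

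The replicate numbers did not pair the libraries, since correlations of same-numbered deviations ran from -0.04 to 0.08, and the replicate block gave 0 calls and medians of 0.10, 0.04 and -0.12 in the Hmx1, Hoxa and Wnt6 deletions. Where 1 library of a deletion was left, it was assumed to vary like the others.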
